A study of Homo sapiens with 6 samples.

Results

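The BCL2 family of apoptosis regulators was followed through 10 genes, BCL2, BCL2L1, MCL1, BAX, BAK1, BCL2L11, BID, BAD, BBC3 and PMAIP1, taken by gene symbol from a table of 57773 genes. All 10 were in the table and all 10 passed the filter on low counts, which left 17805 genes for testing. RNA came from the established cell line HEK293, of human embryonic kidney, and 3 libraries carry the label of a knockdown of TRDMT1, a tRNA cytosine methyltransferase, while 3 carry the label control. The labels give neither the agent used for the knockdown nor that used in the controls, and name no further treatment of the cells or time. Their protocols list an RNA bisulfite kit before library construction. HEK293 cells carry adenovirus E1A and E1B genes, and one E1B product is a viral relative of BCL2, which limits the line as a model of apoptosis control.

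Proteins of the BCL2 family decide whether the outer membrane of mitochondria is opened, which releases cytochrome c and starts the caspases. Guardians (BCL2, BCL2L1, which encodes BCL-XL, and MCL1) hold the effectors BAX and BAK1 in check, and the effectors form the pore once freed. BH3-only proteins carry signals of damage or stress to the other members. BCL2L11 (BIM), BID and BBC3 (PUMA) bind all guardians, BAD prefers BCL2 and BCL-XL, and PMAIP1 (NOXA) prefers MCL1. Message level is one layer of this control, and MCL1 and the BH3-only proteins are also regulated through protein turnover and phosphorylation, which RNA sequencing does not see.

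The libraries held 24776040 to 40088993 counts. TRDMT1 counts were 221, 225 and 245 under the knockdown label and 99, 93 and 80 under the control label. As CPM, the count scaled to the library total after TMM normalization, it stood at 5.73, 5.76 and 5.73 against 3.76, 4.63 and 2.91, so that the targeted gene was higher in the libraries labelled knockdown. Its log2 fold change was 0.61 ± 0.21 (SE) (adjusted p = 0.0705, edgeR). The exact permutation p, two-sided, of its log2(RPKM + 1) was 0.1, which is the smallest possible with 3 and 3 libraries. Since TRDMT1 goes against the labels, every direction below is between libraries as labelled. The spread of replicates over all genes, as a biological coefficient of variation, was 5.43% under the knockdown label and 31.8% under the control label, where replicate 2 stood apart with a TMM factor of 0.812. In that library 21.3% of tested genes lay at least 2-fold from the mean of control replicates 1 and 3. The 7 HEK293 markers summed to 114 to 119 RPKM under the knockdown label and 72.2 to 148 RPKM under the control label, and 1 of them, LIN28B, was called lower. Of these, NEFL stood at 36.3 to 60.3 RPKM and IGF2BP1 at 11.8 to 35.1 RPKM. Of 7 markers of other cell types in the table, COL1A2, KRT5 and DES were called higher, HBB was listed at 0 in all libraries, and PTPRC and CD3E did not exceed 0.03 RPKM. The summed level of these 7 was 1.07 to 1.13 RPKM under the knockdown label and 0.22 to 0.29 RPKM under the control label. COL1A2 stood at 0.34 to 0.40 RPKM in the former and was listed at 0 in the latter. The part of these markers in the results was not tested. In bulk RNA, fewer cells with a transcript and less of it per cell cannot be told apart.

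In RPKM, which scales the count by exonic length and library total, PMAIP1 was the most abundant member and BCL2 the least. RPKM makes no correction for base composition, in which the members differ, so the order between genes carries that limit. PMAIP1 had 191, 232 and 228 RPKM under the knockdown label and 158, 154 and 139 RPKM under the control label. MCL1 followed at 37.3 to 57.9 RPKM and BAX at 38.3 to 48.1 RPKM. BAD (22.2 to 48.9), BAK1 (12.8 to 29.7), BBC3 (7.98 to 15.9), BID (10.8 to 17.1), BCL2L11 (7.33 to 13.6) and BCL2L1 (6.30 to 11.9) came next by mean RPKM, and BCL2 stood at 1.19 to 2.17 RPKM. In the libraries labelled knockdown each member lay above the next in this order in all 3 libraries, except BID, which did not lie above BCL2L11. In the libraries labelled control the ranges of neighbours met from MCL1 down to BID, while PMAIP1, BID, BCL2L11 and BCL2L1 were each clear of the member that followed. The lowest count of any member in any library was 226, for BCL2.

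**Figure D1:**
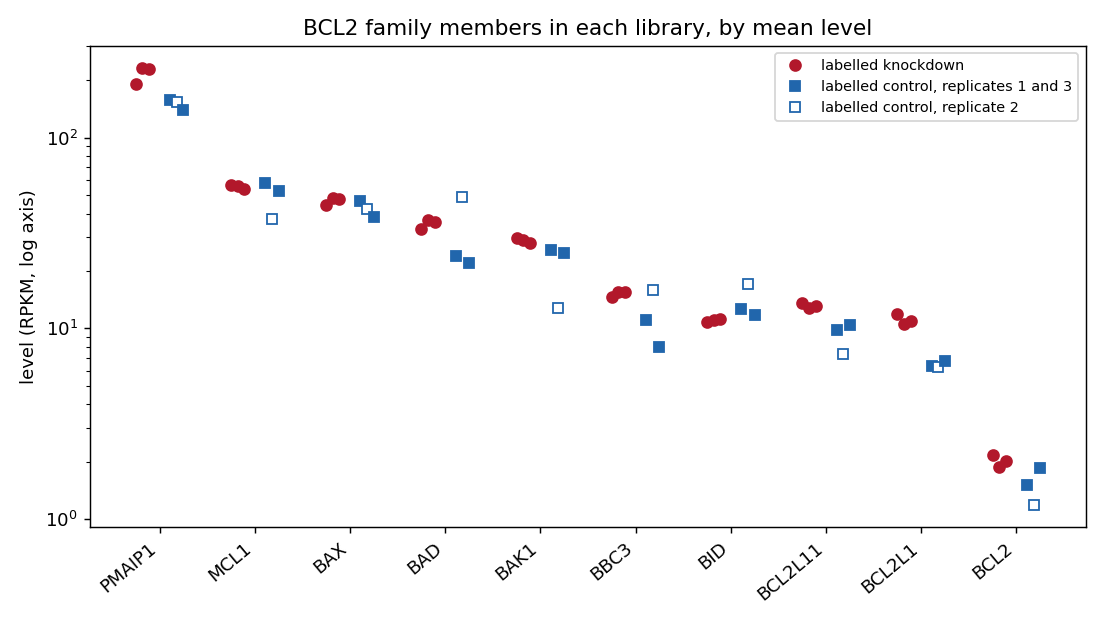
Level of each member in RPKM (log axis) in every library, ordered by mean level. Circles are libraries labelled knockdown, filled squares control replicates 1 and 3, and open squares control replicate 2. PMAIP1 lies at 139 to 232 RPKM above the other members, BCL2 at 1.19 to 2.17 RPKM below them, and the open squares of BAD and BAK1 lie away from the other controls.

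Of the 10 members 1 passed the test and was higher in the libraries labelled knockdown, 0 were lower and 9 were not called. Over all genes tested edgeR called 24.0%, 9.29% higher and 14.7% lower, so that the members' count does not stand above the background. The median log2 fold change of the 10 was 0.20, against −0.04 over all genes tested. On TMM CPM, the libraries labelled knockdown lay above all controls for 3 members (BCL2L1, BAK1 and BCL2L11), below all controls for 1 (BID), and overlapped them for 6. Over all tested genes the groups did not overlap for 49.9%, and the libraries labelled knockdown were above for 23.9%, so these counts are not read as a result. In RPKM, which uses plain library totals, BCL2 and PMAIP1 did not overlap either, with the knockdown label above. The share of all genes without overlap in RPKM was not computed, so this too is not read as a result. DESeq2 called 2 of the 10 (32.4% of all genes), and voom with sample quality weights called 6, of them 5 higher (57.4% of all genes, 27.6% higher). On TMM CPM the spread was larger among the controls for all 10 members, with coefficients of variation of 5.92% to 61.3% against 1.70% to 10.2%. In RPKM it was smaller among the controls for BCL2L1 (3.57% against 6.29%) and PMAIP1 (6.66% against 10.4%).

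Among the guardians, BCL2L1, the message of BCL-XL, was higher in the libraries labelled knockdown. Its CPM were 37.2, 32.8 and 33.9 there, and 21.2, 25.7 and 21.7 in the controls. The lowest library labelled knockdown lay above the highest control, and control replicate 2 was the nearest to it. The log2 fold change was 0.60 ± 0.13 (SE), 1.51-fold (adjusted p = 0.0205, edgeR). The call ended without knockdown replicate 1 (0.55, adjusted p = 0.103), 2 (0.64, 0.0821) or 3 (0.62, 0.0946) and without control replicate 1 (0.59, 0.0587). Without a library labelled knockdown the SE was 0.17 to 0.18, and the estimate changed little. Genes called over the whole table fell from 4267 to between 1191 and 1315 in those fits, so the lost call does not single out a library. Without control replicate 2 the log2 fold change stood at 0.69 ± 0.09 (adjusted p = 0.000277). Over all fits run the log2 fold change was positive, and the adjusted p ran from 5.27e-05 to 0.137.

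BCL2L1 lies on chromosome 20, where the median log2 fold change of the 385 tested protein-coding genes was 0.28. Among its 20 nearest tested protein-coding neighbours the median was 0.32, and 15 of them had values above 0. The part of the neighbourhood in the difference was not tested. In GENCODE 29, exons of the opposite-strand transcript ABALON cover 43.0% of the exonic bases of BCL2L1. How strand was handled in the counting is not given by the sources, so reads from the pair cannot be told apart and the value of BCL2L1 is uncertain to that extent. RefSeq lists more than one start for BCL2L1. The 250 bases before the first listed (chr20:31723964-31724213, minus strand, GRCh38.p14) are shown because this was the called member. They were searched on both strands for GGGCGG (a box bound by SP1), the box CCAAT, the E-box CACGTG, the cyclic AMP half-site TGACG and the sequence TGATGNAA (core of the composite element bound by ATF4 and DDIT3), and every match found is in capitals. Matches of different motifs can share bases.
BCL2L1: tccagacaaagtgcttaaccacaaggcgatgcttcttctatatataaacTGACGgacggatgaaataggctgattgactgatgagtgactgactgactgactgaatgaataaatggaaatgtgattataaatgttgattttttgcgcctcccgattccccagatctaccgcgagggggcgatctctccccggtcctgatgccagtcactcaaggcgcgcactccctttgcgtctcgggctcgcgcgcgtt
It held 1 match, to TGACG, 201 bases before the start, a motif found in 21.2% of the 34788 windows of this length in the RefSeq table.

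MCL1, the guardian with the highest level, showed no difference past the threshold. It had 225, 223 and 212 CPM under the knockdown label and 245, 194 and 215 CPM under the control label, and the groups overlapped. The log2 fold change was 0.01 ± 0.13 (adjusted p = 0.958, edgeR). BCL2 itself had 15.7, 13.5 and 14.4 CPM against 11.7, 11.3 and 13.9 CPM, again with overlap (0.24 ± 0.15, adjusted p = 0.262). Control replicate 2 was the lowest of the 6 libraries for both genes. Within a library, the RPKM of BCL2L1 was 5.47, 5.59 and 5.43 times that of BCL2 under the knockdown label and 4.19, 5.29 and 3.62 times under the control label. All ratios in the libraries labelled knockdown were thus higher than those in the controls, by a margin that control replicate 2 made narrow.

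Neither effector passed the test. BAX had 109, 117 and 116 CPM under the knockdown label and 121, 134 and 96.6 CPM under the control label, with values of the former inside the range of the latter (log2 fold change −0.04 ± 0.15, adjusted p = 0.843, edgeR). BAK1, the effector that resides in the mitochondrial membrane, had 63.5, 61.8 and 59.9 CPM against 58.4, 35.9 and 55.2 CPM. All libraries labelled knockdown were higher than all controls, and the widest gap was to control replicate 2, which was 1.58-fold below the mean of the other controls. The log2 fold change of BAK1 was 0.31 ± 0.19 (adjusted p = 0.272) with all libraries and 0.12 ± 0.08 (0.213) without that control. The ratio of BAX to BAK1 in RPKM was 1.497, 1.66 and 1.69 under the knockdown label and 1.81, 3.28 and 1.53 under the control label. The pseudogene BAK1P1 held 31 to 63 counts per library, against 721 to 2560 for BAK1.

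Among the BH3-only members, BCL2L11 came closest to a call. It had 85.4, 80.6 and 81.8 CPM under the knockdown label and 66.0, 60.2 and 67.3 CPM under the control label, with no overlap. The log2 fold change was 0.36 ± 0.11, 1.28-fold, adjusted p = 0.0529 by edgeR. It was called by DESeq2 (0.38, adjusted p = 0.00752) and, with edgeR, when control replicate 2 was left out (0.31 ± 0.07, 0.00617). It was not called with composition and length trends removed (0.25, adjusted p = 0.0866, edgeR). Without knockdown replicate 1, 2 or 3 the adjusted p was 0.193, 0.166 and 0.182, and without control replicate 1 it was 0.104. The opposite-strand transcript annotated as MIR4435-2HG shares 10.9% of the exonic bases of BCL2L11 in GENCODE 29. It held 383 to 697 counts and was lower in the libraries labelled knockdown (−1.15 ± 0.27, adjusted p = 0.0245), opposite in sign to BCL2L11. That call ended without any 1 of the libraries labelled knockdown and without control replicate 1.

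PMAIP1, the NOXA message, had 403, 488 and 478 CPM under the knockdown label and 354, 425 and 303 CPM under the control label. Control replicate 2 lay above knockdown replicate 1, so the groups overlapped. The log2 fold change was 0.34 ± 0.17 and was not called (adjusted p = 0.19, edgeR). Against plain library totals it was 0.53 (adjusted p = 0.0478). With trends in base composition and exonic length removed it was 1.04 ± 0.12 (adjusted p = 0.00335), a 2.05-fold difference. In each library PMAIP1 made up the largest part of the summed RPKM of the 10 members, 46.8%, 51.1% and 51.1% under the knockdown label and 44.7%, 45.0% and 44.0% under the control label. The RPKM of MCL1 was 0.295, 0.242 and 0.235 times that of PMAIP1 under the knockdown label and 0.367, 0.242 and 0.377 times under the control label, with control replicate 2 among the former. The 250 bases before its RefSeq start (chr18:59899746-59899995, plus strand, GRCh38.p14) are shown as those of the most abundant member, with capitals as above.
PMAIP1: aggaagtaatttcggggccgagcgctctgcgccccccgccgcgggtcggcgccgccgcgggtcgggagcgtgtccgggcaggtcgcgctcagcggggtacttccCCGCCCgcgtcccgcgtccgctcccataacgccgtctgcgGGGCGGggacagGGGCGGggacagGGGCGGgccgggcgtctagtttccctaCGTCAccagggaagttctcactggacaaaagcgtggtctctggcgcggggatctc
They held 4 matches to GGGCGG, which 42.6% of windows hold, and 1 match to TGACG, 55 bases before the start.

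BAD, BBC3 and BID were the members for which control replicate 2 lay farthest above the other controls, BID by 1.75-fold. BAD, the BH3-only protein that growth factor signals keep phosphorylated, had 53.7, 59.4 and 58.1 CPM under the knockdown label and 41.2, 103 and 36.9 CPM under the control label. Control replicate 2 was thus 2.64-fold above the mean of the other controls and above every library labelled knockdown, while the other controls lay below all of these. BBC3, the PUMA message, showed the same arrangement, with 44.0, 46.1 and 46.0 CPM against 35.3, 62.3 and 24.7 CPM, and control replicate 2 was 2.08-fold above the other controls. With all libraries neither was called (BAD −0.08 ± 0.38, adjusted p = 0.896; BBC3 0.16 ± 0.31, adjusted p = 0.738, edgeR). Without control replicate 2 both were called higher, BAD at 0.55 ± 0.09 (adjusted p = 0.00103) and BBC3 at 0.60 ± 0.14 (adjusted p = 0.00591). BID, which caspase cleavage turns into its active form, had 45.1, 46.2 and 46.6 CPM against 55.8, 93.0 and 50.8 CPM. All controls lay above all libraries labelled knockdown, and the log2 fold change was −0.53 ± 0.23 (adjusted p = 0.137) with all libraries and −0.21 ± 0.08 (adjusted p = 0.0583) without control replicate 2.

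The first listed RefSeq windows of BAD (chr11:64284705-64284954, minus strand) and BBC3 (chr19:47232668-47232917, minus strand), both GRCh38.p14, are shown because these members moved together in control replicate 2, with capitals as above.
BAD: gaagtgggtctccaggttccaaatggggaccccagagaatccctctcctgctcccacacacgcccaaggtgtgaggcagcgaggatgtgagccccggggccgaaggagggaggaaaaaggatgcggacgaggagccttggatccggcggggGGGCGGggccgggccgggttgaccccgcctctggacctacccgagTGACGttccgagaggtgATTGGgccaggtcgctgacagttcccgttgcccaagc
BBC3: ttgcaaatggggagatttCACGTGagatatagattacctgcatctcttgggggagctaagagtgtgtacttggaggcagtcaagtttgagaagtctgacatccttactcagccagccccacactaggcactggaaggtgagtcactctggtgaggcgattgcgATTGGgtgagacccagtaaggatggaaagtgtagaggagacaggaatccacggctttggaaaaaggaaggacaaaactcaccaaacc
The BAD window held 1 match to GGGCGG, 1 to the box CCAAT and 1 to the half-site TGACG. The BBC3 window held 1 to the E-box CACGTG and 1 to the box CCAAT. TGATGNAA, present in 3.16% of windows, matched neither.

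BAD has a further limit. Exons of GPR137, on the opposite strand, share 23.7% of the exonic bases of BAD in GENCODE 29. GPR137 held 1826, 1911 and 2174 counts under the knockdown label and 717, 530 and 814 under the control label, and was called higher (0.82 ± 0.12, adjusted p = 0.00428, edgeR). In control replicate 2 the raw count of BAD was 2069, against 1086 and 1014 in the other controls. These counts of both genes are not scaled to library totals, which differed, so they do not compare levels between libraries. The part of GPR137 reads in the values of BAD was not tested. BAD lies on chromosome 11, where the median over 787 tested protein-coding genes was 0.31, and the median of its 20 nearest was 0.29. For the other members on chromosomes 1, 2, 6, 18, 19 and 22 the chromosome medians lay between −0.16 and 0.05.

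Control replicate 2 was the highest library for 4 members (BAX, BID, BAD and BBC3) and the lowest for 4 (BCL2, MCL1, BAK1 and BCL2L11). It was the highest or lowest of the 6 libraries for 65.7% of all tested genes, so that 8 of 10 members is a count near that of the table. Among all tested genes, 89.4% lay closer to the other controls than BAD did and 80.2% closer than BBC3, on the log2 scale. A few genes of the pathway lists, picked after their values were seen, were also high in this library. DDIT3 (CHOP), which is known to act on BCL2L11 and BBC3, had 34.9, 33.2 and 34.0 CPM under the knockdown label and 15.1, 78.2 and 6.58 CPM under the control label. ATF4 had 692, 677 and 645 CPM against 759, 2371 and 399 CPM. HRK, a further BH3-only gene, had 24.7, 23.1 and 22.0 CPM against 12.0, 41.2 and 12.1 CPM. Since they were picked after being seen high in control replicate 2, sharing this with BAD and BBC3 is not a result. The ATF4 level of control replicate 1 exceeded all libraries labelled knockdown. Other listed factors went both ways in control replicate 2. FOXO1 (11.7 CPM), FOXO3 (70.7), STAT3 (77.3) and TP73 (21.3) were lowest of the 6 libraries there. E2F1 (104 CPM) and STAT5B (111) were highest. Whether these factors had a part in the values of the members was not tested.

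**Figure D2:**
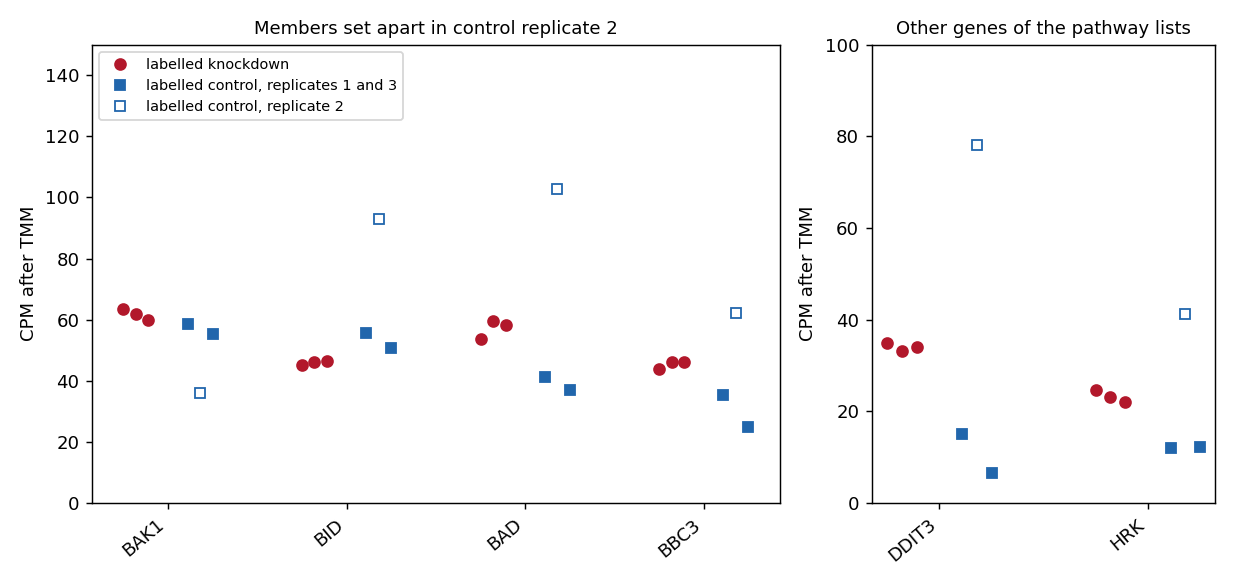
CPM after TMM in every library for BAK1, BID, BAD and BBC3 (left) and for DDIT3 and HRK (right). Open squares mark control replicate 2, which lies lowest for BAK1 (35.9 CPM) and highest for BID (93.0), BAD (103), BBC3 (62.3), DDIT3 (78.2) and HRK (41.2).

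Without control replicate 2, edgeR called 5 of the 10 members, all higher (BCL2L1, BCL2L11, BAD, BBC3 and PMAIP1), 4 of them BH3-only genes out of 5. PMAIP1 then stood at 0.48 ± 0.11 (adjusted p = 0.00617). The same fit called 48.5% of all genes tested, 22.9% higher and 25.6% lower, so that the share called overall is near the background while the calls all had 1 direction. MCL1 (−0.06 ± 0.08), BAX (0.07 ± 0.10), BAK1, BCL2 (0.19 ± 0.12) and BID were not called in it. The median over the 10 members was 0.25, against 0.00 over all genes. Leaving out that library was a choice among all 6 that were left out in turn. The members called numbered 0 without any 1 library labelled knockdown or without control replicate 1, and 2 (BCL2L1 and BCL2L11) without control replicate 3. Over all genes, 1246, 1315 and 1191 were called without knockdown replicates 1, 2 and 3. It was 2044 without control replicate 1 and 5417 without control replicate 3, against 4267 with all 6 libraries. These counts of members are thus not read as a result.

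Base composition differed widely among the members. By the longest transcript in GENCODE 29, BBC3 had 69.7% G and C, BAD 66.3%, BAX 58.9%, BAK1 58.8% and BCL2L1 56.9%, while BID had 49.7%, BCL2L11 45.7%, BCL2 45.6%, MCL1 45.1% and PMAIP1 37.2%. The median of tested genes was 48.8%. Removing smooth trends in composition and length lowered the log2 fold change of 8 members, by 0.30 for BBC3, 0.24 for BAX, 0.20 for BCL2L1 and 0.18 for BAD, and raised it for MCL1 by 0.12 and for PMAIP1 by 0.70. With the trends removed the count of called members was again 1 of 10, but PMAIP1 was the called member, and BCL2L1 was not (0.40 ± 0.12, adjusted p = 0.0602). That fit called 20.3% of all genes tested, made up of 9.23% higher and 11.1% lower. The labels' protocols place a bisulfite kit, which turns unmethylated cytosine into uracil, before library construction. The part of that step in these values was not tested.

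**Figure D3:**
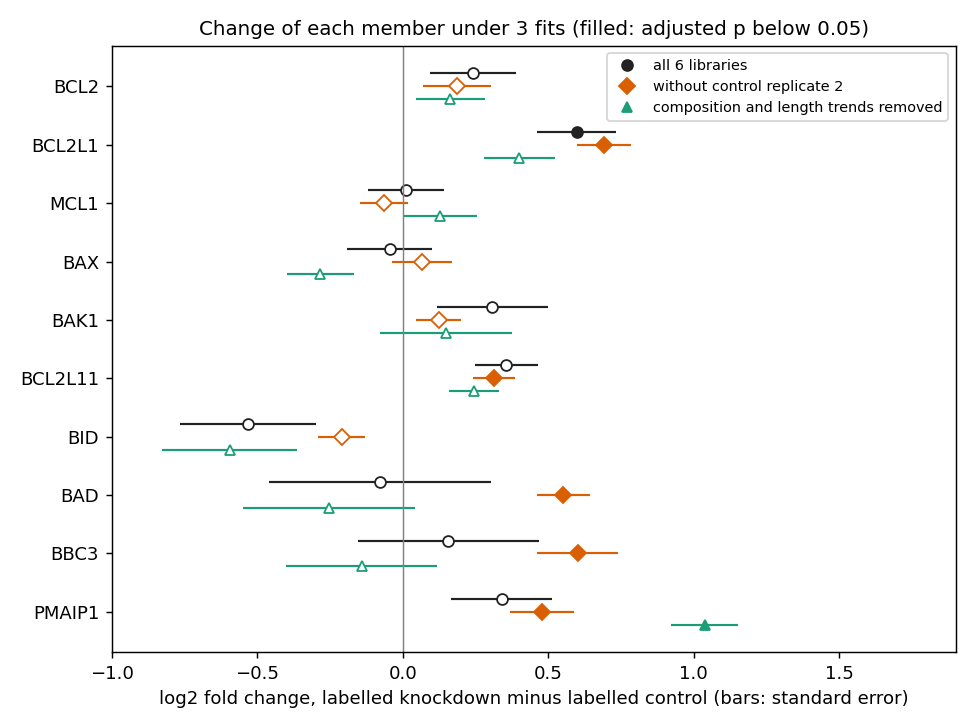
Log2 fold change (labelled knockdown minus labelled control) of each member with its standard error, in edgeR fits of all libraries (circles), without control replicate 2 (diamonds) and with composition and length trends removed (triangles), filled where the adjusted p is below 0.05. BCL2L1 is filled in the first fit, 5 members in the second and PMAIP1 in the third, and BAD moves from −0.08 to 0.55 without control replicate 2.

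The rest of the pathway was read from 7 lists with 78 genes, of which 71 were tested. Of these, 4 were higher, 5 lower and 62 not called, with a median log2 fold change of −0.02, against −0.04 and 24.0% called over all genes. Each called gene named from these lists lost its call without any 1 of the 3 libraries labelled knockdown, and all but TP73 also without control replicate 1. Over all genes those fits called 1191 to 2044, against 4267 with all libraries. Of 9 other BCL2 family genes tested, only BCL2L2 (BCL-W), a guardian, was called, and it was lower. It had 31.8, 30.2 and 27.3 CPM under the knockdown label and 45.5, 49.7 and 42.9 CPM under the control label (−0.63 ± 0.13, adjusted p = 0.0142, edgeR). BCL2L2 and BCL2L1 were thus called in opposite directions. BCL2L2 was called in 11 of 17 alternatives, among them the one with trends removed (−0.64, adjusted p = 0.00886). It was not called with plain library totals, with limma-trend on log2(RPKM + 0.1), or in the 4 fits just given that leave out a library, and its adjusted p reached 0.0946. It has a readthrough transcript with its neighbour PABPN1, so reads of the pair may be split uncertainly. BCL2A1, BCL2L10, BCL2L14 and BCL2L15 did not pass the filter on low counts.

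Downstream of the members, 2 of 17 genes for outer membrane partners, cytochrome c, the apoptosome and caspases were lower and 0 were higher. Their median was −0.17. VDAC1, the main channel of the outer membrane, had 312, 309 and 286 CPM against 485, 446 and 432 CPM (−0.59 ± 0.13, adjusted p = 0.0186, edgeR). VDAC1 was called in 7 of 17 alternatives, and its adjusted p reached 0.123. VDAC3 stood at 111 ± 2.58 against 160 ± 24.2 CPM (SD, n = 3 each; −0.52, adjusted p = 0.0341), a call that ended with trends removed (−0.22, 0.145). VDAC2, the channel that binds BAK1, was at −0.55 ± 0.20 and not called (adjusted p = 0.0835). It was called lower by edgeR without control replicate 2 (−0.31, adjusted p = 0.0196) or 3 (−0.70, 0.0324), and by voom (−0.38, 0.00163). The apoptosome scaffold APAF1 had 78.7, 84.9 and 85.3 CPM against 48.3, 16.7 and 54.2 CPM, with no overlap, and was not called (1.06 ± 0.39, adjusted p = 0.0909). It was called without control replicate 2 (0.70, adjusted p = 0.000171). Of 5 inhibitor of apoptosis genes, BIRC2 (cIAP1) was lower, at 18.7 ± 2.37 against 32.0 ± 3.54 CPM (−0.77 ± 0.15, adjusted p = 0.0141), which was −0.17 (0.327) with trends removed.

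Upstream, the transcription factors known to act on the members had the highest median of the lists, 0.44, with 2 of 9 higher and 0 lower. The lists were chosen with earlier results of these data known, and no set test was run. Their medians and counts of calls are thus not read as a result. TP73, which can act on BBC3, had 43.1, 44.1 and 42.7 CPM under the knockdown label and 24.0, 21.3 and 28.5 CPM under the control label, with no overlap. Its log2 fold change was 0.82 ± 0.14 (adjusted p = 0.00878, edgeR), and it was not called with trends removed (0.32, 0.062). Among the controls BBC3 was highest in replicate 2 and TP73 was lowest there. Without that library both were called higher by edgeR (BBC3 0.60, adjusted p = 0.00591, and TP73 0.73, adjusted p = 0.000249). The part of TP73 in the level of BBC3 was not tested. Of the 9 factors, 8 were called higher without control replicate 2, in a fit that called 22.9% of all genes higher, 3 with DESeq2 (13.8% of all genes) and 1 with trends removed (9.23%).

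Among the remaining lists, TRADD, an adaptor of TNF receptor signalling, was the only called gene of 10 in the death receptor pathway, at 14.8 ± 0.88 against 10.3 ± 0.68 CPM (SD, n = 3 each; 0.52 ± 0.13, adjusted p = 0.0318, edgeR). The call of TRADD ended with trends removed (0.38, 0.119) and also without control replicate 3. Of 8 genes for protein turnover of the members, only TRIM17, a ubiquitin ligase acting on MCL1, was called higher, at a low 1.68 ± 0.35 against 0.57 ± 0.39 CPM (1.53 ± 0.45, adjusted p = 0.0487), and not with trends removed (0.0801). USP9X, the deubiquitinase that stabilises MCL1, was at −0.43 ± 0.33 and HUWE1, an MCL1 ubiquitin ligase, at −0.22 ± 0.19, neither called. HUWE1 was called lower with trends removed (−0.50, adjusted p = 0.0219, edgeR). USP9X was called lower without control replicate 2 (−0.73, adjusted p = 0.000198, edgeR) and with voom (−0.61, 0.000172). Of 13 genes for BAD phosphorylation and binding, the 14-3-3 gene YWHAH was lower (133 ± 0.70 against 188 ± 19.1 CPM; −0.50 ± 0.12, adjusted p = 0.0248) and 12 were not called.

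**Figure D4:**
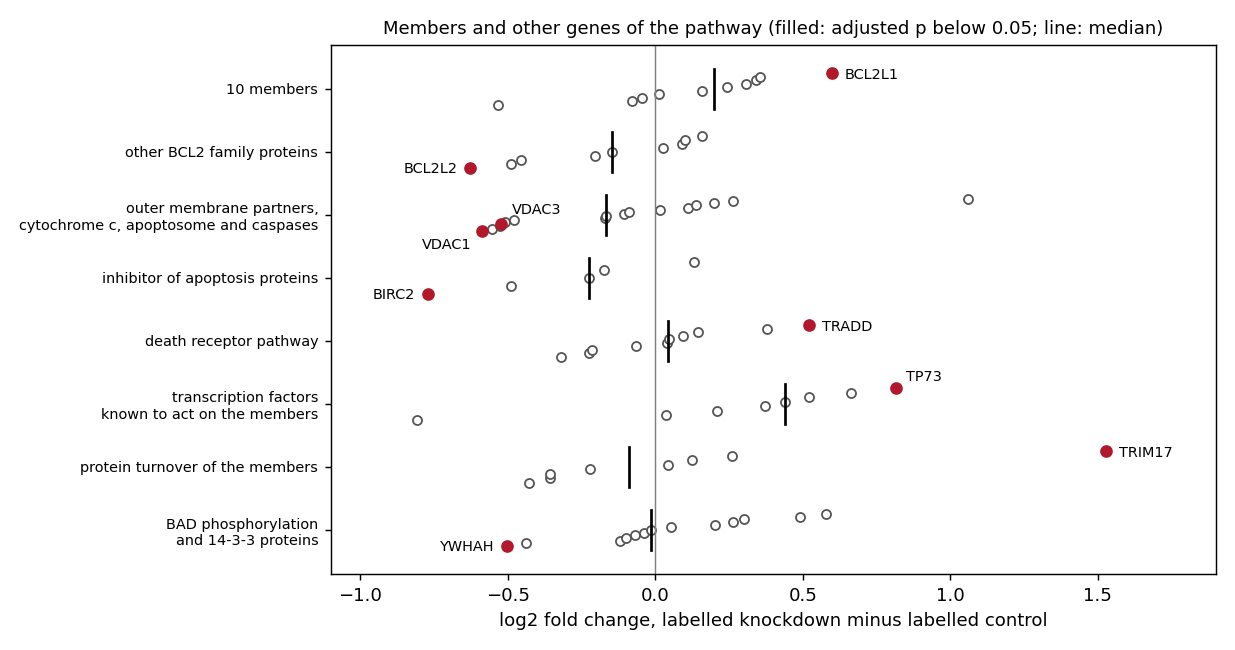
Log2 fold change (labelled knockdown minus labelled control) of the 10 members and of the tested genes of each pathway list, 1 point per reported gene, with the median over all tested genes of each list as a line. Filled and named points have an adjusted p below 0.05 by edgeR, and are BCL2L1 among the members and BCL2L2, VDAC1, VDAC3, BIRC2, TRADD, TP73, TRIM17 and YWHAH among the other lists.

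The genes of the pathway lists whose profile over the 6 libraries was most like that of BCL2L1 were TRADD, PIM1 and STAT5B. Likeness was the root mean square difference between log2 RPKM profiles after subtracting each gene's mean, over 71 genes, and it was 0.158 for TRADD, 0.168 for PIM1 and 0.21 for STAT5B. PIM1, a kinase that phosphorylates BAD, stood at 0.58 ± 0.20 (adjusted p = 0.0774, edgeR) and STAT5B, a transcription factor that acts on BCL2L1, at 0.21 ± 0.16 (adjusted p = 0.375).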

How the data were processed

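The labels' protocols list ribosome-depleted RNA, an RNA bisulfite kit and a stranded total RNA kit. Whether the counted libraries were bisulfite-treated is not stated. The deposited table held the authors' raw read counts per gene and their RPKM values (100.0% equal to the count over exonic length and library total within 0.006). Tools listed in the submitters' processing notes, with no role, were edgeR 3.4.6, DESeq 1.18.0, DESeq2 1.6.3, StringTie 1 and HTSeq 0.6.1, with build hg19. The aligner, annotation and handling of strand are not given in the sources used here. Groups follow the genotype labels, and columns were matched by the second name in each description. In these, TK stands in the names of control columns, while TKD stands in the titles of knockdown samples. No label names separate cultures, so the p-values reflect spread among libraries that may be technical. Libraries of a group differed by more than sampling noise.

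The test was edgeR 4.0.16 (quasi-likelihood, TMM, filterByExpr, robust; R 4.3.3) with Benjamini-Hochberg adjustment over 17805 genes at 0.05. Fold changes are log2, knockdown label minus control label, ± SE. Alternatives were DESeq2 1.42.0, voom and limma-trend (limma 3.58.1), other filters and scalings, a replicate block, each library left out, and trends in composition and length removed (mgcv 1.9.3). Composition, chromosomes and overlaps came from GENCODE 29 (97.2% of tested genes), promoters from RefSeq (9 of 10 members), both of another build than hg19. The members, lists and named genes (all members, TRDMT1, called genes of the lists, the 3 closest in profile to the member with the smallest p) were chosen with earlier results of these data known, and further genes were named after their values were seen. Some genes of the lists enter the counts and medians but are not reported here. The fits were also run on simulated counts that had the same spread in both groups and no library set apart. That check therefore does not cover the unequal spread or the outlying control replicate 2 of these data.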

Additional observations from a re-analysis of the deposited data

How the results depend on the processing

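The lowest count of a member in a library was 226. The count of called members was 1 with all libraries, 2 with RLE size factors, plain library totals, DESeq2 and both limma-trend fits, 6 (5 higher, 1 lower) with voom and sample quality weights, and from 0 to 5 when single libraries were left out. Plain totals moved the median of all genes from −0.04 to 0.13. All genes called numbered 4267 as fitted, 4255 with RLE size factors, 3537 with plain totals (1888 higher, 1649 lower) and 5761 with DESeq2. They numbered 3826 and 3551 with limma-trend (pseudocount 1 and 0.1), 10214 with voom, and 1191 to 9063 without single libraries. Other pathway genes called numbered 9 (4 higher, 5 lower) as fitted, 5 (5 higher, 0 lower) with plain totals, 18 (8 and 10) with DESeq2, 42 (18 and 24) with voom, and 0 to 39 without single libraries.

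No label gives the replicate numbers a meaning. Deviations of same-numbered libraries correlated at −0.04, 0.06 and 0.00, and not every library correlated best with its own number. With control replicate 2 set apart, these values show no pairing but cannot exclude a shared preparation. With the replicate block, calls over all genes fell from 4267 to 2976. In that edgeR fit 0 members (BCL2L1 at 0.60, adjusted p = 0.0637) and 5 pathway genes were called, and BAD was at 0.086. With the block and composition and length trends removed, 1929 genes and 4 pathway genes were called, BCL2L1 stood at 0.40 (adjusted p = 0.137), PMAIP1 was called at 1.04 (0.019), and BBC3 stood at −0.072. With the trends alone removed BCL2L1 stood at 0.40 (0.0602), PMAIP1 at 1.04 (0.00335) and BBC3 at −0.14.

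BCL2L11 was called with RLE factors (0.38, adjusted p = 0.0482), DESeq2 (0.38, 0.00752) and voom (0.31, 0.00272). It was not called with plain totals (0.52, 0.0628), the replicate block (0.36, 0.142), the trends removed (0.25, 0.0866) or both of these (0.25, 0.228). Voom also called BID (−0.27), BAD (0.48), BBC3 (0.43) and PMAIP1 (0.42). PMAIP1 was called with plain totals (0.53) and limma-trend with a pseudocount of 1 (0.52) or 0.1 (0.53). Sign changes of uncalled values were BAX at 0.14 with plain totals, 0.035 without the filter, 0.14 and 0.15 with limma-trend (pseudocount 1 and 0.1), BAD at 0.16 with plain totals, 0.017 without the filter, 0.25 and 0.26 with limma-trend, and MCL1 at −0.12 with voom. TRDMT1 was called with plain totals (0.80), DESeq2 (0.64), voom (0.66) and limma-trend (0.25 and 0.66). It was also called by edgeR without control replicate 2 (0.79, adjusted p = 0.00249), but not when any other single library was left out. The cause of these changes was not tested.

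Without single libraries the log2 fold changes ran from 0.19 to 0.34 for BCL2, 0.55 to 0.69 for BCL2L1, −0.064 to 0.14 for MCL1, −0.17 to 0.067 for BAX, 0.12 to 0.47 for BAK1, 0.31 to 0.41 for BCL2L11, −0.70 to −0.21 for BID, −0.34 to 0.55 for BAD, −0.10 to 0.60 for BBC3, 0.23 to 0.48 for PMAIP1 and 0.45 to 0.79 for TRDMT1. The log2 ratio differences ran from 0.22 to 0.50 for BCL2L1 to BCL2, −0.54 to −0.22 for MCL1 to PMAIP1 and −0.60 to −0.05 for BAX to BAK1.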

Other observations

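The windows of 250 bases before the first listed RefSeq start were compared over the 9 members that have one. GGGCGG matched in 6, CCAAT in 5, TGACG in 5, CACGTG in 2 and TGATGNAA in 0, on either strand. Over all 34788 distinct windows the shares were 42.6%, 32.0%, 21.2%, 6.31% and 3.16%. TGACG was present for BCL2, BCL2L1, BAX, BAD and PMAIP1. BAX held 4 matches to CACGTG, the last of them 14 bases before the start. With 9 windows these counts are a description, and a match is not evidence of binding.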
